A study of Glycine max with 8 samples.

Results

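The binding of FLAG-SNAP3 and of FLAG-SNAP4 was compared through the ChIP-seq peaks of 4 libraries, 2 biological replicates for each TF, out of the 8 libraries of the series. The members of the comparison were all peaks of these 4 libraries, 22962 of the 57709 peaks of the series, and the sites made by joining peaks that overlapped by at least 1 bp, 12765 of the 21575 sites of the whole series. SNAP3 and SNAP4 are NAC TFs of soybean (Glycine max). Each was expressed as a fusion of its Williams 82 coding sequence with a FLAG tag, driven by the soybean pM4 promoter, in hairy roots raised with Agrobacterium strain K599, and root tissue with nodules was fixed and precipitated with an antibody against FLAG. The public sample labels name the tissue as root nodule and the genotype as SNAP3 mutant or SNAP4 mutant, while the study's methods describe tagged TFs. The methods' description is used here. The labels give no age and no nitrogen level, and an untagged control was not analysed here. The expressed TF is driven by a promoter that is not its own, and the material was whole roots with nodules, so binding in some of the cells cannot be told apart from weaker binding in all of them. The gene of SNAP4 itself, listed in the annotation as NAC11, had no peak within 2 kb in any of the 8 libraries, and no deposited value shows which TF carried the tag.

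NAC TFs are a plant family with a conserved DNA-binding domain near the N-terminus, and many members act in the aging of organs, in stress responses and in the control of other TF genes. ChIP-seq recovers the DNA fragments that a protein holds, and a peak marks a place where more fragments piled up than the surroundings predict. A peak can lie in a promoter, inside a gene or far from any gene, and its presence alone does not show that the nearest gene is regulated. The tRNA genes, which RNA polymerase III reads from promoter elements inside the gene, gave a large group of peaks in these libraries and are described separately.

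The libraries differed in depth, and this bears on each count of peaks. The deposited fold enrichment and p-value of a peak could be solved together for the number of fragments piled up at its summit and for the local background, and the solution was a whole number of fragments for 100% of the peaks. The background of the whole genome then gave the number of tags used, 5.06 M and 3.15 M in FLAG-SNAP3 replicates 1 and 2 and 7.74 M and 7.26 M in FLAG-SNAP4 replicates 1 and 2. FLAG-SNAP3 had 6590 and 3628 peaks, FLAG-SNAP4 5888 and 6856. FLAG-SNAP3 replicate 2 was thus the library with the fewest tags and the fewest peaks. The median peak held 13 and 12 fragments at its summit in the FLAG-SNAP3 libraries and 18 and 16 in the FLAG-SNAP4 libraries, so that counting error was large for single peaks. To put libraries of unequal depth on 1 scale, the pileup at the summit was divided by the genome background of the library, and this ratio is called the level below. The lowest level at which a peak was called at the genome background was 6.52 and 7.64 in the FLAG-SNAP3 libraries and 4.76 and 5.02 in the FLAG-SNAP4 libraries. A weak site was therefore easier to call for FLAG-SNAP4.

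Of the 12765 sites, 1587 (12.4%) had a peak in all 4 libraries, 498 (3.90%) had one in both FLAG-SNAP3 libraries and in neither FLAG-SNAP4 library, and 959 (7.51%) had one in both FLAG-SNAP4 libraries and in neither FLAG-SNAP3 library. These 3 groups are called the shared, the SNAP3-only and the SNAP4-only sites. Sites of a single library numbered 2513 in FLAG-SNAP4 replicate 2, 2472 in FLAG-SNAP3 replicate 1, 1910 in FLAG-SNAP4 replicate 1 and 642 in FLAG-SNAP3 replicate 2. Pairs of libraries from different TFs shared fewer exclusive sites than the replicates of either TF, with 481 for replicate 1 of FLAG-SNAP3 and replicate 2 of FLAG-SNAP4 as the highest and 65 for replicate 2 of FLAG-SNAP3 and replicate 1 of FLAG-SNAP4 as the lowest of the 4 such pairs. Shared sites held 25.6 and 45.5% of the peaks of the FLAG-SNAP3 libraries and 28.9 and 24.9% of those of the FLAG-SNAP4 libraries. With the 3628 strongest peaks of each library, the order of the exclusive classes turned: 483 sites were SNAP3-only, 447 SNAP4-only and 1058 shared.

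**Figure D1:**
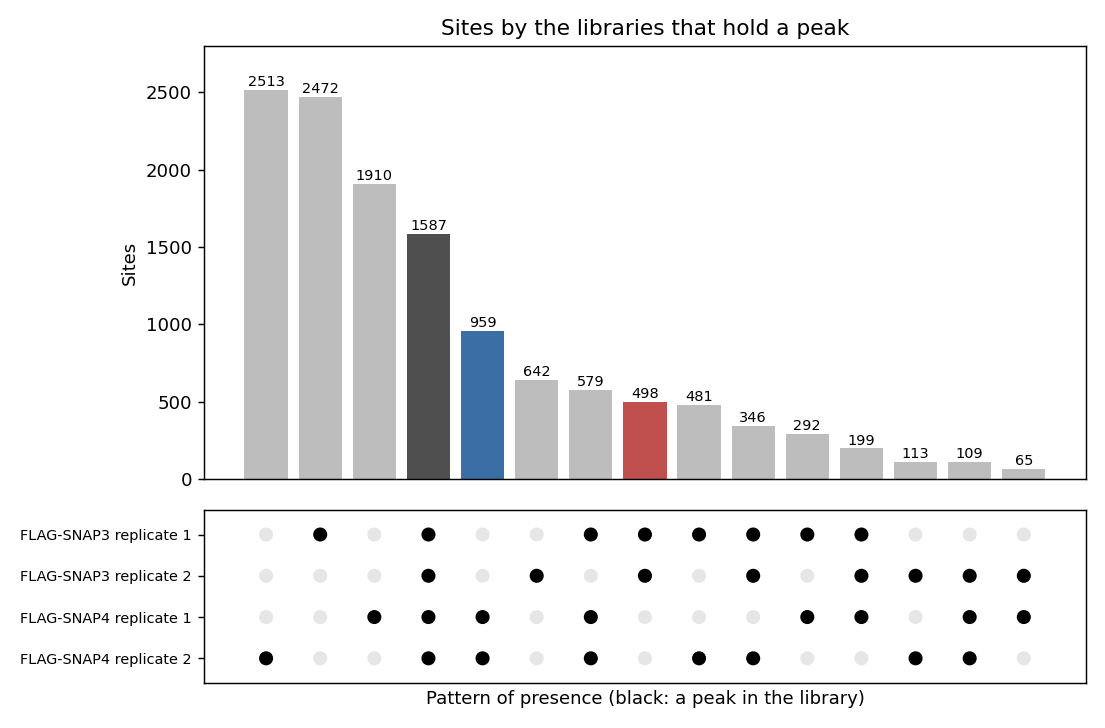
Number of sites (vertical axis) for each pattern of presence in the 4 libraries, with black dots below a bar marking the libraries that hold a peak. The 498 SNAP3-only sites are in red, the 959 SNAP4-only sites in blue and the 1587 shared sites in dark grey, and sites of single libraries make up 3 of the 4 tallest bars.

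The SNAP3-only sites were of middling strength in their own libraries. Their median percentile of fold enrichment within the library was 50.6 in replicate 1 and 41.6 in replicate 2, where the median over all peaks of a library is at the middle of the scale by definition. The strongest of them by mean percentile lay on chromosome 1 from 1747607 to 1748194 (Wm82 a4.v1), inside a gene and 266 bp from the nearest gene end, that of LOC102667405, with a fold enrichment of 7.77 and 8.92 and with 28 and 25 fragments at the summit. Its level was 30.4 in replicate 1, with an exact 95% Poisson interval of 20.2 to 44.0 for counting error only, and 38.2 in replicate 2. The site at LOC100818133, on chromosome 16 from 25864504 to 25864974 and also inside a gene, followed with a fold enrichment of 8.09 and 8.22. The third, inside a gene and 3339 bp from the nearest end, that of LOC102661178 on chromosome 6, reached 7.29 and 8.46 from only 13 fragments in each library. In all 3 the percentile in both libraries was between 89.0 and 93.4, and their order is within counting error. The other 5 of the 8 strongest lay at LOC100791702, LOC100780632, LOC100775835, LOC100816751 and the pseudogene LOC100786403, with 11 to 21 fragments and a fold enrichment of 6.803 to 8.34. The sites at LOC100780632 and LOC100775835 had no peak in any FLAG-SNAP1 or FLAG-SNAP2 library.

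The levels of the SNAP3-only sites were set beside the limit of the deeper FLAG-SNAP4 libraries. At each site the level that FLAG-SNAP4 libraries needed was computed from the local background and from the least significant peak each had kept, and the lower of the 2 FLAG-SNAP3 levels was at or above it in both libraries at 498 of 498 sites. The median lower level was 13.0, against median needed levels of 6.802 and 7.18, and 112 sites stood at no less than double the needed level. Levels at shared sites were higher in the FLAG-SNAP3 libraries, with medians of 21.7 and 22.9 against 15.0 and 17.2. With the levels first scaled by the median ratio at shared sites, 448 of the 498 sites (89.96%) still reached what was needed. The count of 498 was nearly fixed by the choice of the sites, which had to pass the higher limits of both FLAG-SNAP3 libraries, and says nothing about a cause. MACS2 also asks for a minimum width, which this calculation leaves out.

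The SNAP4-only sites stood at a median percentile of 45.4 and 43.8 in their own libraries, and their strongest members ranked higher than the strongest SNAP3-only sites. The site with the highest mean percentile lay on chromosome 5 from 22273605 to 22273877, 11820 bp from the nearest gene end, that of LOC100796566, with a fold enrichment of 13.0 and 9.61 and with 31 and 22 fragments. A site at LOC100810201, on chromosome 3 from 20014950 to 20015240 and 2636 bp from the gene end, had 10.6 and 9.90. One inside the pseudogene LOC121173446 on chromosome 14 had 9.85 and 10.6. All 8 sites named by the rule, which also lay at LOC100800305, LOC100799266, the pseudogene LOC100785868, LOC100776305 and LOC100808834, had percentiles between 96.8 and 99.0 in FLAG-SNAP4 libraries, and 3 of them lay more than 2 kb from every gene end. Each of these 8 had a peak in 1 or more of the FLAG-SNAP1 and FLAG-SNAP2 libraries.

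The SNAP4-only sites were set beside the limits of the FLAG-SNAP3 libraries in the same way. The lower FLAG-SNAP4 level was at or above the level needed in FLAG-SNAP3 replicate 1 at 701 of the 959 sites, in replicate 2 at 284 (29.6%), and no less than double the needed level in both at 3 sites. The median lower level was 10.9, against median needed levels of 9.78 and 12.2. After the same scaling, 909 sites (94.8%) reached what was needed, so this share rests on how the libraries are put on 1 scale. The part of the lower depth of the FLAG-SNAP3 libraries in the absence of these sites was not tested.

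The 2 exclusive classes differed in how often the libraries of FLAG-SNAP1 and FLAG-SNAP2, which took no part in choosing them, held a peak at the same place. A peak was present at 28.7 to 34.1% of the SNAP3-only sites, depending on the library, at 61.4 to 65.8% of the SNAP4-only sites and at 88.4 to 92.2% of the shared sites, and the ranges of the 4 libraries did not overlap between classes. Of the SNAP3-only sites, 202 (40.6%) had no peak in any of these 4 libraries and 39 had one in all 4. Of the SNAP4-only sites, 114 (11.9%) had none and 331 (34.5%) had one in all 4. The gap was narrower but in the same direction when sites were built from equally many strong peaks per library, with 45.96 to 53.6% of SNAP3-only and 66.0 to 68.9% of SNAP4-only sites present in a library. Among the 284 SNAP4-only sites above the limit of both FLAG-SNAP3 libraries, 66.9 to 71.5% were present. At the 9721 sites outside the shared and exclusive classes a peak was present at 29.97 to 34.99%, and 44.1% had none. The SNAP3-only range overlapped this range, while the SNAP4-only range lay above it. Most of these 9721 sites had a peak in a single library, so they are not like the exclusive classes, whose sites are in 2. Sites found in exactly 1 library of each TF are also in 2 libraries, and stood between the exclusive classes at 38.4 to 56.6%. Among sites of exactly 2 libraries the SNAP3-only range was thus the lowest. Sites are not replicates and no test was run over them, and only 1 pair of libraries defined each class.

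SNAP3-only sites also lay inside genes more often. The midpoint of the strongest peak was inside a gene at 56.4% of SNAP3-only sites, 44.3% of SNAP4-only sites and 52.6% of shared sites, and 15.5, 24.6 and 15.3% of them lay more than 2 kb from every gene end. Of the 9721 sites outside the 3 classes, most of them in a single library, 43.6% lay inside a gene and 24.8% that far away, close to the SNAP4-only sites. Sites found in exactly 1 library of each TF lay inside a gene at 26.2 to 49.0%, depending on the pair. The share also differed within the SNAP4-only sites. It was 51.4% at the 284 sites at or above the level needed in both FLAG-SNAP3 libraries. At the 675 sites below that level it was 41.3%. All 498 SNAP3-only sites were at or above the level needed in FLAG-SNAP4, so the gap was narrower among sites past these limits, 56.4 against 51.4%. The part of the lower depth of the FLAG-SNAP3 libraries in this gap was not tested. The share of tRNA genes among these classes was very unequal: 2 of the 498 SNAP3-only sites and 15 of the 959 SNAP4-only sites had a summit within 200 bp of a tRNA gene, against 494 (31.1%) of the shared sites. Without sites at tRNA genes, 56.2, 43.8 and 50.3% of the 3 classes lay inside genes. From equally many strong peaks per library, 55.5% of SNAP3-only and 32.9% of SNAP4-only sites lay inside a gene. This cut kept all 3628 peaks of FLAG-SNAP3 replicate 2 but only the stronger peaks of the other libraries. The share inside genes fell with peak strength, as given below, so the cut is no even control, and its part in this gap was not tested.

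The same difference held over whole libraries. Midpoints inside a gene made up 52.1 and 50.3% of the peaks of FLAG-SNAP3 replicates 1 and 2 and 45.1 and 41.7% of those of FLAG-SNAP4 replicates 1 and 2, so that both FLAG-SNAP3 libraries lay above both FLAG-SNAP4 libraries. The means were 51.2% ± 1.31 (SD, n = 2) and 43.4% ± 2.35 (SD, n = 2), a difference of 7.81 percentage points (two-sided exact permutation test, p = 0.333, the smallest that 2 against 2 libraries allow). The 4 libraries of FLAG-SNAP1 and FLAG-SNAP2 gave 36.0 to 38.8%. Under each alternative run for this share the difference kept its sign, and it was 11.3 points for equally many strong peaks per library and 5.22 points with protein-coding genes alone. The cut to equal numbers took weak peaks from the other libraries but none from FLAG-SNAP3 replicate 2. The share inside genes fell with the strength of the peak in each of the 4 libraries. Among peaks not at tRNA genes, it went from 60.9 and 58.1% in the lowest quartile of fold enrichment to 40.8 and 35.0% in the highest quartile for FLAG-SNAP3, and from 59.5 and 53.1% to 31.8 and 28.5% for FLAG-SNAP4. In the lowest quartile the TFs overlapped, since FLAG-SNAP4 replicate 1 stood above FLAG-SNAP3 replicate 2, and in the other 3 quartiles they did not. Of the peaks inside protein-coding genes, 65.4 and 70.1% in the FLAG-SNAP3 and 63.8 and 67.3% in the FLAG-SNAP4 libraries lay within 500 bp of a gene end. The annotation used gives no strand, so that the start of a gene could not be told from its end.

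**Figure D2:**
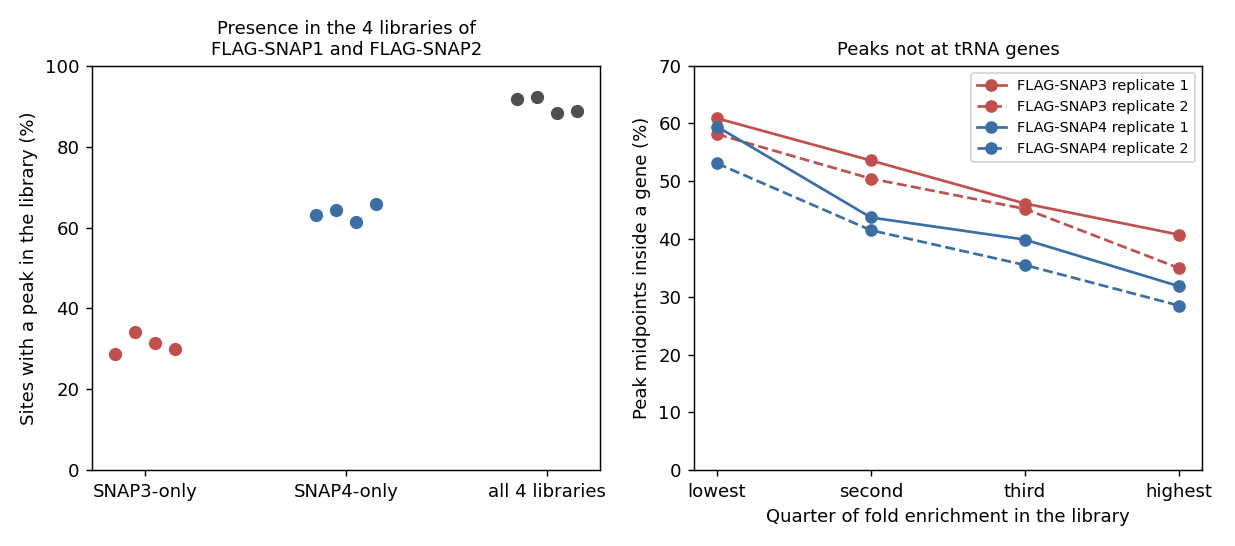
Left, share of SNAP3-only, SNAP4-only and shared sites (percent, vertical axis) with a peak in each of the 4 libraries of FLAG-SNAP1 and FLAG-SNAP2, 1 point a library, which runs from 28.7 to 34.1%, from 61.4 to 65.8% and from 88.4 to 92.2%. Right, share of peak midpoints inside a gene (percent) by quartile of fold enrichment in each library, without peaks at tRNA genes, falling in all 4 libraries from the lowest to the highest quartile.

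Each peak was given to the gene whose end was closest, up to 2 kb away. By this rule 348 genes (0.593% of the 58643 annotated genes) had a peak in both FLAG-SNAP3 libraries and neither FLAG-SNAP4 library, 601 (1.02%) the reverse, and 1316 (2.24%) had a peak in all 4 libraries. Of the last, 817 were protein-coding and 445 were tRNA genes, while the 348 and the 601 held 5 and 19 tRNA genes. As at the sites, 115 of the 348 genes had no peak in any FLAG-SNAP1 or FLAG-SNAP2 library, against 52 of the 601. With equally many strong peaks per library, 371 and 264 genes belonged to 1 TF alone. Only 19 of the 348 and 57 of the 601 are protein-coding genes that carry a name in the annotation, and the account of gene groups rests on those.

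Among the groups taken by symbol, VPE2, a vacuolar-processing enzyme of a family of proteases that act in plant cell death, had a peak in both FLAG-SNAP3 libraries alone, on chromosome 14 from 8873001 to 8873247 and outside the gene by 109 bp, with a fold enrichment of 6.24 and 4.71 and percentiles of 81.3 and 34.1. It was 1 of 2 genes with that name (50%, against 0.593% of all genes), a group too small for a share to be read. AMT1.6, named as an ammonium transporter of the AMT1 type, had one inside the gene with 4.65 and 5.82. It was the only member of 15 ammonium transporter genes that fell into an exclusive class (6.67%, against 0.593% of all genes). The other genes found with FLAG-SNAP3 alone included the bZIP genes BZIP28 (5.03 and 5.10) and BZIP124 (4.42 and 4.74) of 77 with that name (2.60%, against 0.593% of all genes). Of the same 77, BZIP105, BZIP53B and BZIP98 were found with FLAG-SNAP4 alone (3.90%, against 1.02%). A further 4 were in all 4 libraries (5.19%, against 2.24%). No peak of any of the 4 libraries was assigned to the 6 autophagy (ATG), 4 leghemoglobin and 3 glutamine synthetase genes that the annotation names, and the 3 named nitrate transporter genes lacked a peak shared by the replicates of either TF. A single library had peaks at only 2709 to 4620 of the 58643 annotated genes, so nothing is read from absence in groups this small.

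Of the WRKY, NAC and heat shock genes, 0 were found with FLAG-SNAP3 alone, which at 0.593% of all genes is no departure from the background in groups of this size, and most members had a peak in neither class. WRKY TFs, which bind W-boxes and act in defence and leaf senescence, had 11 of 61 genes in all 4 libraries (18.0%, against 2.24% of all annotated genes) and 5 (8.20%, against 1.02%) with FLAG-SNAP4 alone (WRKY6, WRKY12, WRKY17, WRKY51 and WRKY57). Of the 41 genes with a NAC symbol, 3 (7.32%, against 2.24%) were in all 4 libraries, as was SNAC38, a NAC gene named apart from this group. NAC1 and NAC27 were found in FLAG-SNAP4 alone (4.88%, against 1.02%). Their fold enrichment was 3.76 and 3.37 at NAC1 and 4.40 and 4.33 at NAC27, and both also had a peak in all 4 libraries of FLAG-SNAP1 and FLAG-SNAP2. Of 18 genes named as heat shock proteins, HSP90-1, HSP90-2, HSP23.9 and HSP26-A were found with FLAG-SNAP4 alone (22.2%, against 1.02%). The first pair encode HSP90-type chaperones. HSP26-A is also listed as GSTU23, a glutathione S-transferase. Of 73 genes with a MYB symbol, 5 (6.85%, against 2.24%) were in all 4 libraries. MYB138 was found in FLAG-SNAP4 alone (1.37%, near the 1.02% of all genes). LCL4 and 1-3-1A, which carry MYB names as synonyms, were also found with FLAG-SNAP4 alone. Of 6 ERF genes, ERF6, ERF7 and EREB were in all 4 libraries (50%, against 2.24%). Among the SNAP4-only WRKY, NAC, MYB and heat shock genes taken by symbol, the percentiles ran from 2.13 at WRKY12 in replicate 1 to 70.3 at HSP23.9 in replicate 1. In replicates 1 and 2, LCL4 stood at 89.9 and 45.7 and 1-3-1A at 6.70 and 26.9. NAC27 had the most fragments of the NAC pair, 48 and 50, at a level of 32.7 and 35.9. The part of the lower depth of the FLAG-SNAP3 libraries in these memberships was not tested.

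Shared sites were strong in each library, with median percentiles of 83.0 and 71.8 in the FLAG-SNAP3 libraries and 73.9 and 80.0 in the FLAG-SNAP4 libraries. The 6 strongest shared sites were chosen by mean percentile over the 4 libraries, so each had to rank near the top for both TFs. The site with the highest mean percentile, on chromosome 15 from 28347505 to 28347942 and 3044 bp from the nearest gene end (LOC100794164), reached 22.6 and 17.3 in the FLAG-SNAP3 libraries against 25.05 and 23.6 in those of FLAG-SNAP4 (fold enrichment). The site at LOC100814124 had 20.8 and 22.1 against 21.5 and 23.0, and the one at LOC100785260 had 17.0 and 18.8 against 19.9 and 21.2. The other 3 of the 6 strongest, with LOC113002440, LOC100791672 and LOC100812458 as the nearest genes, lay 6055 to 33029 bp from a gene end. None of the 6 was called different between the TFs (limma on log2 fold enrichment after quantile normalization, adjusted p of 0.613 to 0.9754), and each was present in all 8 libraries. The lack of a call was largely fixed by the choice, since quantile normalization gives like ranks like values. No likeness of the TFs is read from it. The rank order of shared sites was alike between replicates, with a Spearman rho of percentiles of 0.81 for FLAG-SNAP3 and 0.74 for FLAG-SNAP4, and across TFs it was 0.75 and 0.71 against FLAG-SNAP4 replicate 2 but 0.63 and 0.62 against FLAG-SNAP4 replicate 1. These values are over 1587 sites of libraries that share strong and weak regions, and they serve as a description.

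At 336 shared sites (21.2%) both FLAG-SNAP3 percentiles lay above both FLAG-SNAP4 percentiles, and at 374 (23.6%) the reverse held. Sites at tRNA genes leaned to FLAG-SNAP3, with 126 of 494 above and 57 below, and the other 1093 sites leaned to FLAG-SNAP4, with 210 above and 317 below. The median difference of mean percentile (FLAG-SNAP3 minus FLAG-SNAP4) was 1.91 points for tRNA sites and −1.62 points for the others. Percentiles are relative within a library, so a higher rank of tRNA peaks lowers that of the others. In fold enrichment without scaling, the median log2 difference was 0.43 for tRNA sites and 0.24 for the others, both higher in FLAG-SNAP3. Among sites not at tRNA genes, 54.3% of those with FLAG-SNAP3 above and 44.2% of those with FLAG-SNAP4 above lay inside a gene.

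**Figure D3:**
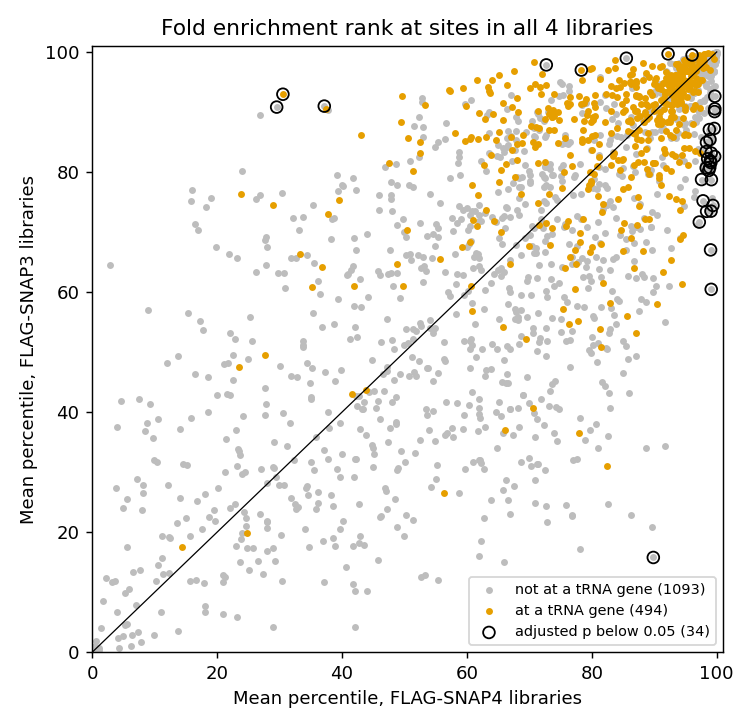
Mean within-library percentile of fold enrichment at the 1587 shared sites, FLAG-SNAP4 libraries on the horizontal and FLAG-SNAP3 libraries on the vertical axis, with the 494 sites at tRNA genes in orange, the other 1093 in grey and the line of equal rank in black. The 34 circled sites passed an adjusted p of 0.05, and the 26 of them that were higher in FLAG-SNAP4 lie, but for 1, at the right edge.

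A test of each shared site found 34 of 1587 (2.14%) that differed between the TFs at an adjusted p below 0.05 (limma, Benjamini-Hochberg over the shared sites), 8 (0.504%) higher in FLAG-SNAP3 and 26 (1.64%) higher in FLAG-SNAP4. At an unadjusted p below 0.05 there were 264. The fold enrichment was put on a common scale by quantile normalization, because its median over shared sites was higher in FLAG-SNAP3 by 0.31 on the log2 scale. Without scaling 133 sites were called, of which 111 (83.5%, against 23.5% after quantile normalization) were higher in FLAG-SNAP3, and with median centring 111, of which 26 were higher in FLAG-SNAP3. Each of the 34 sites kept its direction in every alternative in which it was found, the omission of each library included. This was nearly fixed in advance, because the sites were called from the same values. At each of them both values of one TF lay above both of the other, so it is no check of the calls. No site passed when within-library percentiles or the −log10 q-value stood in for fold enrichment, where the smallest adjusted p was 0.170 and 0.0619. Without FLAG-SNAP4 replicate 2 there were 69 calls, and without FLAG-SNAP3 replicate 2 there were 22.

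Many of the 26 sites higher in FLAG-SNAP4 had few protein-coding genes around them. The largest difference lay on chromosome 14 from 33731028 to 33731550, 15249 bp from the nearest gene end (LOC100798031), with a fold enrichment of 5.21 and 5.44 for FLAG-SNAP3 against 12.7 and 14.7 for FLAG-SNAP4 (log2 difference −1.42, SE 0.17, limma adjusted p = 0.00457). The groups were far apart, and the level was 9.78 and 12.2 against 23.1 and 26.5. A site 5 bp from MIR5032, a microRNA gene on chromosome 2, had 7.64 and 5.44 against 14.7 and 14.9 (log2 difference −1.29, SE 0.19, limma adjusted p = 0.00499). At the site 733 bp from LOC100798757 on chromosome 8 it was 6.56 and 6.07 against 12.4 and 15.2. The nearest genes of 5 of the 26 sites were snoRNA genes, but these lay 12924 to 65060 bp away. Of the 26 sites, 11 were more than 2 kb from every gene end, 6 were inside a gene and none was at a tRNA gene. Their median number of protein-coding genes within a window of 100 kb was 3.5, against 9 around the sites not called, but LOC102659551 and LOC100815465 had 10 and 13. The 26 sites also ranked higher, with a median of mean percentiles of 90.1 against 73.2 at the sites not called. The 6 strongest shared sites, of which none was called, had 0 to 12 such genes. The part of peak strength in this difference was not tested. Of the 26 sites 20 (76.9%) were present in all 8 libraries, beside 79.8% of the sites not called. A pair of these sites lay side by side at LOC121172850 on chromosome 9, from 40543336 to 40543735 and from 40544016 to 40544317, and did not overlap. The called site at LOC100796566, on chromosome 5 from 22289390 to 22289735, lay on the same stretch of chromosome as the strongest SNAP4-only site.

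Of the 8 sites higher in FLAG-SNAP3, 4 were at tRNA genes, beside 31.1% of all shared sites, and nothing is read from this count. The highest difference was at TRNAA-AGC, an alanine tRNA gene on chromosome 18, where the site ran from 53044180 to 53044840 and the fold enrichment was 14.7 and 15.5 for FLAG-SNAP3 against 5.27 and 9.69 for FLAG-SNAP4 (log2 difference 1.03, SE 0.21, limma adjusted p = 0.0234). The others were TRNAA-UGC on chromosome 15 (16.9 and 12.8 against 6.79 and 8.60), TRNAI-AAU on chromosome 13 (7.64 and 9.53 against 3.68 and 3.76) and TRNAS-UGA on chromosome 3 (10.3 and 9.94 against 4.71 and 5.28). Each of these tRNA sites was present in all 8 libraries. The lowest adjusted p of the 8 belonged to a site on chromosome 2 from 14642848 to 14643342, 5739 bp from the nearest gene end (LOC100527660), with 11.6 and 10.2 against 4.53 and 4.94 (log2 difference 1.01, SE 0.17, limma adjusted p = 0.0101). The site inside a gene and 15 bp from the end of LOC100786481 on chromosome 4 had 11.6 and 12.8 against 4.82 and 6.997. Both FLAG-SNAP3 values lay above both FLAG-SNAP4 values at all 8 sites, and the remaining sites were at LOC100799458 and LOC100797418.

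**Figure D4:**
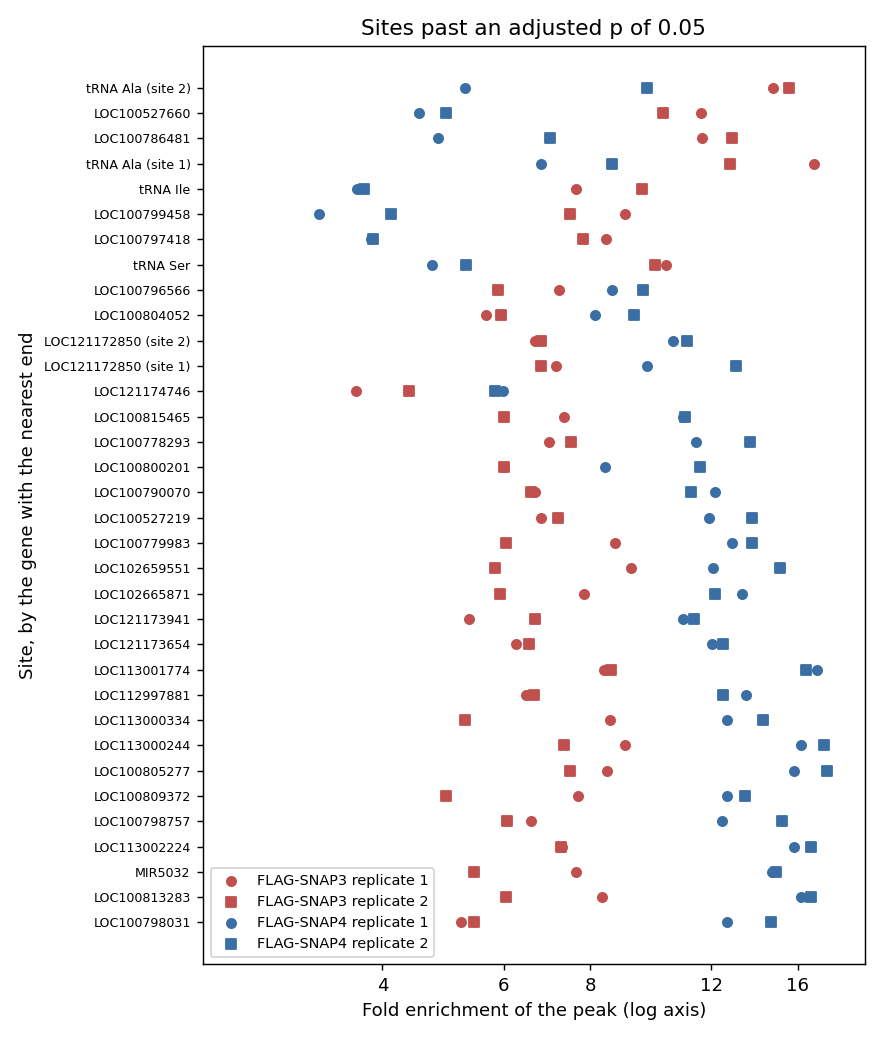
Fold enrichment of the peak (horizontal, log axis) in each of the 4 libraries at the 34 sites past an adjusted p of 0.05, ordered by the log2 difference and named by the gene with the nearest end or by the tRNA isotype. Red marks FLAG-SNAP3 and blue FLAG-SNAP4, with circles for replicate 1 and squares for replicate 2, and the colours do not overlap within any row.

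By rank, the shared sites that leaned most to FLAG-SNAP3 included a pair of TF genes. At WRKY34, on chromosome 7 from 44038833 to 44039334 and inside the gene, the fold enrichment was 5.25 and 5.69 for FLAG-SNAP3 (percentiles 64.1 and 65.0) and 2.81 and 2.75 for FLAG-SNAP4 (percentiles 4.12 and 1.71). This put a middling peak of one TF beside one of the weakest peaks of the other, but the site missed the threshold (limma adjusted p = 0.0528). At AP2-6, a gene named after the AP2 domain of a plant TF family, on chromosome 4 from 50640986 to 50641824, it was 6.21 and 6.08 against 3.40 and 3.36 (limma adjusted p = 0.111). Each of these sites had a peak in 1 of the 4 libraries of FLAG-SNAP1 and FLAG-SNAP2. The other 4 of the 6 were at LOC100806857, TRNAI-AAU, LOC100799458 and LOC100815146, with differences of 59.4 to 62.7 percentile points.

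The 6 shared sites that leaned most to FLAG-SNAP4 by rank were present in all 8 libraries. At the pseudogene LOC121174746, on chromosome 4 from 32679879 to 32680503, the fold enrichment was 3.66 and 4.37 for FLAG-SNAP3 (percentiles 8.29 and 23.3) and 5.97 and 5.82 for FLAG-SNAP4 (percentiles 92.4 and 87.3), and this site was among the 26 called (limma adjusted p = 0.0281). At LOC100783822 on chromosome 18, 107 bp outside the gene, it was 3.41 and 4.80 against 5.93 and 5.81. The other 4, at LOC100779346, LOC100306276, LOC100803713 and the pseudogene LOC100805256, differed by 57.3 to 63.3 percentile points in the same direction and had adjusted p-values of 0.0654 to 0.114 in limma, apart from LOC100805256 at 0.0538.

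Among named genes with a peak in all 4 libraries, ranks were compared through the strongest peak assigned to the gene. Of 97 such genes, both FLAG-SNAP3 percentiles were above both FLAG-SNAP4 percentiles at 25 and below at 17, beside 21.2 and 23.6% of shared sites. Of the 11 WRKY genes, 4 (WRKY23, WRKY34, WRKY37 and WRKY49) had FLAG-SNAP3 above and none had FLAG-SNAP4 above. The 3 genes with a NAC symbol all had FLAG-SNAP4 above, but at SNAC38, a NAC gene named apart from this group, the ranks overlapped. Fold enrichment at SNAC38 was 7.54 and 6.50 for FLAG-SNAP3 (percentiles 90.3 and 78.6). For FLAG-SNAP4 it was 3.98 and 5.66 (percentiles 47.1 and 86.0). At NAC2 the fold enrichment was 4.29 and 4.32 for FLAG-SNAP3 (percentiles 29.6 and 21.1) and 4.38 and 4.53 for FLAG-SNAP4 (percentiles 65.3 and 62.4), at NAC018 it was 4.71 and 4.22 against 4.04 and 4.81, and at NAC19 it was 3.90 and 5.06 against 4.67 and 4.62. In fold enrichment itself the TFs overlapped at NAC018 and NAC19, since a given fold enrichment stands higher among the peaks of a FLAG-SNAP4 library, and at NAC2 they were close. Of the 5 MYB genes, MYB124 had FLAG-SNAP3 above (7.01 and 6.76 against 4.11 and 3.28) and 4 overlapped. The 3 ERF genes and NOD33, the nodulin gene of the 5 named ones with a peak in all 4 libraries, overlapped as well. These counts are small and no test was run on them.

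Peaks at tRNA genes were found in similar numbers for the 2 TFs. A summit lay within 200 bp of 623 and 561 of the 709 tRNA genes in the FLAG-SNAP3 libraries and of 557 and 632 in the FLAG-SNAP4 libraries (mean 592 ± 43.8 against 594.5 ± 53.0, SD, n = 2; two-sided exact permutation test, p = 1). In all 4 libraries 493 tRNA genes (69.5%) had a peak, 48 had none in any, 2 were found with FLAG-SNAP3 alone and 14 with FLAG-SNAP4 alone. The library mattered more than the TF, since FLAG-SNAP3 replicate 2 and FLAG-SNAP4 replicate 1 had the fewer tRNA genes. Peaks at tRNA genes made up 9.38 and 15.4% of the peaks of the FLAG-SNAP3 libraries and 9.39 and 9.15% of those of the FLAG-SNAP4 libraries, a difference of 3.10 percentage points (two-sided exact permutation test, p = 0.667) that was 0.11 points without FLAG-SNAP3 replicate 2 and 0.62 points with equal numbers of peaks. Among peaks with a partner in the other replicate, a choice made after seeing the data, the share was 20.01 and 20.34% against 15.79 and 15.96%. Their median percentile was 91.2 and 86.3 against 84.2 and 90.1 (1.61 points, two-sided exact permutation test, p = 0.667).

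The strength of the tRNA peaks relative to the background separated the TFs more clearly than their number. The median level was 22.8 and 25.97 in the FLAG-SNAP3 libraries and 13.6 and 17.2 in the FLAG-SNAP4 libraries, while other peaks had medians of 13.0 and 16.8 against 11.6 and 10.8. Both FLAG-SNAP3 libraries were above both FLAG-SNAP4 libraries in each case, and within a library tRNA peaks exceeded the others. The lowest level called at the genome background was also higher for FLAG-SNAP3, 6.52 and 7.64 against 4.76 and 5.02. Its part in these medians was not tested. Of the 100 strongest peaks, 37 and 42 were at tRNA genes for FLAG-SNAP3 against 3 and 5 for FLAG-SNAP4, and of the 500 strongest 270 and 279 were, against 172 and 220. The best rank of a tRNA peak was 5 and 9 in the FLAG-SNAP3 libraries and 18 and 31 in the FLAG-SNAP4 libraries. At shared sites in the limma fit the median log2 difference was 0.11 for tRNA sites and −0.04 for the others, and without scaling it was 0.43 and 0.24, so the direction of the other sites turned with the scaling.

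By isotype, tyrosine and tryptophan tRNA genes leaned most to FLAG-SNAP3. Over all 494 shared sites at tRNA genes, 25.5% had FLAG-SNAP3 above and 11.5% had FLAG-SNAP4 above. The isotypes named here were picked by their values from all isotypes, and no test was run on their counts. Of the 14 tyrosine tRNA genes with a peak in all 4 libraries, 7 had both FLAG-SNAP3 percentiles above both FLAG-SNAP4 percentiles and none had the reverse, and the median percentiles were 91.2 and 90.4 against 74.2 and 85.1. Of the 12 tryptophan genes 6 had FLAG-SNAP3 above and none the reverse, with medians of 91.2 and 86.7 against 68.4 and 83.5. Methionine tRNA genes, which include those that start translation, had 14 of 31 with FLAG-SNAP3 above and 1 with the reverse, at medians of 94.6 and 91.4 against 82.7 and 92.3. For valine, serine and lysine the counts were even, with 8 and 8 of 34, 8 and 8 of 33, and 6 and 6 of 32. Glutamine tRNA genes had 2 above and 4 below of 14. In most isotypes, tyrosine, tryptophan and methionine included, the lowest of the 4 medians was that of FLAG-SNAP4 replicate 1, and the part of this library in the leaning of single isotypes was not tested. Many tRNA genes of 1 isotype are near-identical copies, and only uniquely mapped reads were kept by the authors, so the signal of identical copies could not be split with certainty.

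**Figure D5:**
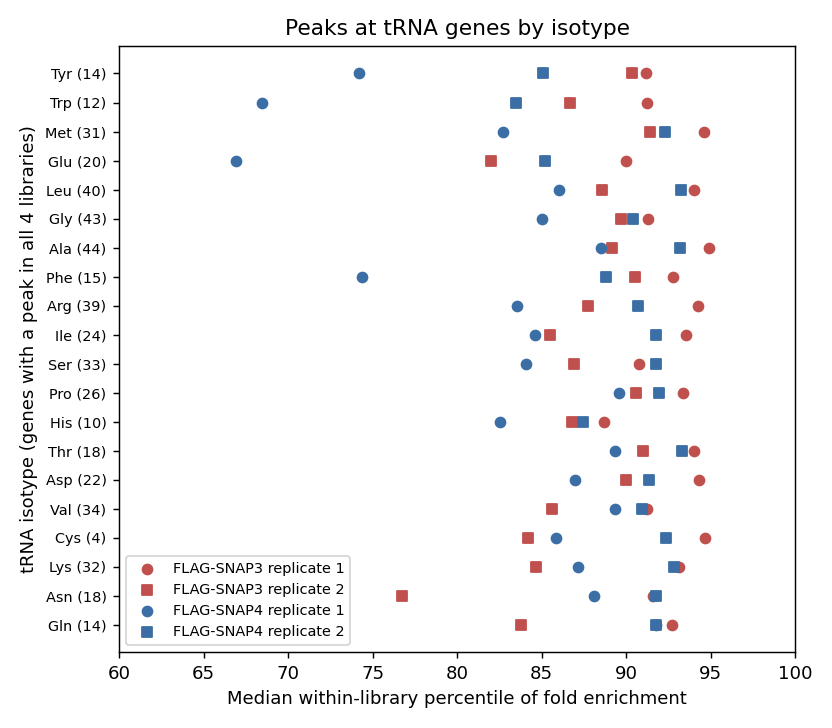
Median within-library percentile of fold enrichment (horizontal axis) of peaks at tRNA genes, for each isotype and each of the 4 libraries, over the genes with a peak in all 4 libraries (their number in brackets). The isotypes are ordered by the median difference between the TFs, with tyrosine and tryptophan at the top, where FLAG-SNAP4 replicate 1 stands at 74.2 and 68.4.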

How the data were processed

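The authors trimmed paired reads (Trim Galore 0.6.6), placed them on Wm82 a4.v1 (Bowtie2 2.3.4.3), kept unique proper pairs with a mapping quality above 30, and ran MACS2 2.2.7.1 library by library at a q-value of 0.05. The deposited lists give each peak's position, a score, the fold enrichment as a ratio, and the −log10 p-value and −log10 q-value. The text used here names no control library for peak calling and does not say how duplicates were treated, and duplicate fragments would raise pileups.

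Peaks of the 4 libraries were joined where they overlapped by 1 bp. Fold enrichment (pileup + 1 over background + 1) and the Poisson p-value were solved for a whole pileup (relative tolerance 0.0001), and the genome background for tags with the stated genome size. Fold enrichment in the shared sites was tested with limma 3.58.1 (R 4.3.3) on the log2 scale after quantile normalization, and library measures by exact permutation. Python 3.11.15, numpy 2.4.6, pandas 2.3.3, SciPy 1.17.1, networkx 3.6.1 and matplotlib 3.10.9 were used, and the steps were tested on simulated data.

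Gene positions were those of RefSeq for Glycine_max_v4.0, which gives no strand and no gene descriptions, and gene groups were taken by symbol. Sites named are the 8 SNAP3-only and 8 SNAP4-only sites and the 6 shared sites of highest mean percentile, and the 6 shared sites with the largest difference in percentile in each direction, plus the sites called. No promoter or genome sequence was used here, so no motif was searched. Of the genes the paper names, only NAC11 was matched, and trehalose, asparagine synthetase, protein phosphatase 2C, ribosomal protein and histone genes could not be taken by symbol. Members, lists and rules were chosen with earlier results of these data known. Alternatives were other overlaps, q-values, distances, scalings and measures, equal numbers of peaks, and leaving out each library.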

Additional observations from a re-analysis of the deposited data

How the results depend on the processing

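The counts of exclusive sites depended on the number of peaks and libraries. A q-value of 0.0001 gave 289 SNAP3-only, 556 SNAP4-only and 1027 shared sites, and equal numbers of strongest peaks gave 447 SNAP4-only sites, 264 genes of FLAG-SNAP4 only and 831 genes of both TFs. The level needed in both FLAG-SNAP3 libraries, an alternative chosen after seeing the data, left 284 SNAP4-only sites. Every gene within 2 kb gave 1991 genes of both TFs. Leaving out each library gave 700 to 2994 SNAP3-only, 1072 to 3551 SNAP4-only and 1691 to 2166 shared sites, and 518 to 1767, 680 to 1864 and 1395 to 1779 genes. The highest counts of SNAP3-only and SNAP4-only sites were without FLAG-SNAP3 replicate 2 and without FLAG-SNAP4 replicate 1, where fewer libraries must hold a peak. The number of shared sites called was 111 with median centring, 133 with no scaling, 69 with summits within 200 bp (30 higher in FLAG-SNAP3 and 39 in FLAG-SNAP4), and 0 with percentiles (205 at an unadjusted p below 0.05) and with the −log10 q-value (302). On the recovered pileup over the genome background, chosen after seeing the data, it was 100 after quantile normalization (28 and 72) and 684 without (629 and 55). Without sites at tRNA genes it was 46 (19 and 27). Leaving out each library gave 22 to 69, the latter without FLAG-SNAP4 replicate 2 (30 and 39). The replicate numbers did not pair the libraries (the replicate differences of the TFs had a correlation of −0.053 over 1587 sites), and with the replicate block 0 sites were called (219 at an unadjusted p below 0.05). The cause of these differences was not tested. The difference in the number of tRNA genes, of −2.5, turned to 23 at a q-value of 0.0001, 22.5 with equal numbers of peaks and 17.5 with summits within 100 bp, was −7.5 within 500 bp, and ran from −40 to 35 when a library was left out. The difference in percentile of tRNA peaks ran from −1.31 to 4.53, that in the share of tRNA peaks from 0.11 to 6.08 points (0.62 with equal numbers of peaks), and that in the share inside genes from 6.14 to 9.47 points. The other alternatives turned no direction of these results. Depth limits the FLAG-SNAP3 libraries most, where the lowest level called at the genome background was 6.52 and 7.64, against 4.76 and 5.02 for FLAG-SNAP4.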

Other observations

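Some named gene families were singled out after their values had been seen. Of all annotated genes, 2.24% were found in all 4 libraries and 1.02% in FLAG-SNAP4 alone. Of the 37 genes named as heat shock factors, the TFs that drive heat shock genes, HSF-01, HSF-13, HSF-16, HSF-18, HSF-20 and HSF-32 had a peak in all 4 libraries and HSF-05 in FLAG-SNAP4 alone. At HSF-16 both FLAG-SNAP3 percentiles were above both of FLAG-SNAP4 (fold enrichment 10.5 and 7.94 against 4.54 and 5.28), and at HSF-13 the reverse held in rank. Of the 33 LBD genes, a plant TF family, LBD5, LBD23, LBD30 and LBD37 had a peak in all 4 libraries and LBD35 in FLAG-SNAP4 alone. Of the 20 tau class glutathione S-transferases, GSTU24, GSTU30 and GSTU42 were found with FLAG-SNAP4 alone and GSTU47 in all 4 libraries, and none with FLAG-SNAP3 alone. GSTU24 had percentiles of 90.9 and 90.5 in the FLAG-SNAP4 libraries and no peak in FLAG-SNAP1 or FLAG-SNAP2, and it lies near HSP26-A (GSTU23) and GSTU30 on chromosome 7. Genes found with FLAG-SNAP3 alone included SYP24 (fold enrichment 6.11 and 6.76), FAD2-2B, named as a fatty acid desaturase (5.75 and 6.73), and CHS13, a chalcone synthase of the flavonoid pathway (6.05 and 6.44). SYP24 and FAD2-2B had no peak in any FLAG-SNAP1 or FLAG-SNAP2 library.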
